A study of Arabidopsis thaliana with 6 samples.

Results

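The transcripts described here are those of 9 Arabidopsis genes of the ER body, taken from 33602 genes listed in each library. They are PYK10 (AT3G09260), BGLU21 (AT1G66270), BGLU22 (AT1G66280), NAI1 (AT2G22770), NAI2 (AT3G15950), MEB1 (AT4G27860), MEB2 (AT5G24290), GLL22 (AT1G54000) and GLL23 (AT1G54010). The members were chosen by locus from what is known of the ER body, with earlier results of the same contrast in view, so their differences between the groups, though fitted and called with all other genes, are given as a description with no p-value and are not independent evidence. RNA was sequenced from primary roots of plants aged 7 d with the genotype ipt1,3,5,7, which carry mutations in isopentenyltransferase genes of cytokinin synthesis and serve in both groups. In the DMSO group, 3 libraries came from roots collected 1 h after the move to medium with the solvent dimethyl sulfoxide. In the BAP group, 3 libraries came from roots collected 4 h after the move to 1 µM 6-benzylaminopurine (BAP), a synthetic cytokinin. Time after the move therefore differs along with BAP, and their effects cannot be told apart. No wild type was among these libraries, and root tips and lateral roots had been removed. The study's methods call the libraries of a group biological replicates.

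ER bodies are elongated compartments continuous with the endoplasmic reticulum (ER) that Arabidopsis and its relatives form in the epidermis of seedlings and in roots. They store β-glucosidases at high concentration, and these enzymes meet their glucoside substrates when the cell is broken, which links ER bodies to chemical defence. The basic helix-loop-helix (bHLH) factor NAI1 is required for their formation, and the ER body protein NAI2 is needed for their shape and number.

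The 3 β-glucosidases of the group are close relatives, and the ends of their coding sequences show it. The last 36 coding bases are printed from the RefSeq annotation of TAIR10.1, with the last 4 codons before the stop in capitals, because these codons encode the signal that retrieves proteins to the ER.
PYK10: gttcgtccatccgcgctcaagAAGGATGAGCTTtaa
BGLU21: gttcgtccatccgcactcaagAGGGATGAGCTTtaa
BGLU22: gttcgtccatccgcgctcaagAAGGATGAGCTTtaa
The BGLU22 end was identical to that of PYK10. The BGLU21 end differed from it by G15A and A23G, with positions counted from 1 at the first printed base, and the latter lies in the retrieval signal. BGLU24, a relative outside the members, has the same retrieval codons as PYK10, so these are not particular to the members. Over the whole protein, BGLU21 and BGLU22 were 92.0% identical, PYK10 and BGLU21 were 82.1% identical, and PYK10 and BGLU22 were 82.2% identical. All 3 proteins had 524 residues. GLL22 and GLL23 were 88.6% identical, whereas MEB1 and MEB2 were 32.3% identical.

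BGLU21 (TAIR10, chromosome 1, bases 24699990 to 24703041) and BGLU22 (chromosome 1, 24706512 to 24709785) are neighbours on the minus strand, with 3470 bases between them. GLL22 (chromosome 1, 20154169 to 20156419) and GLL23 (chromosome 1, 20158664 to 20160815) are also neighbours on the minus strand, 2244 bases apart. The other members lie alone, PYK10 on chromosome 3 (2840477 to 2843781, minus), NAI2 on chromosome 3 (5397569 to 5402652, minus), NAI1 on chromosome 2 (9684725 to 9686595, plus), MEB1 on chromosome 4 (13873708 to 13876528, plus) and MEB2 on chromosome 5 (8263132 to 8265741, minus). Of the 50-base words in their exons, 5.20% in BGLU21, 4.87% in BGLU22, 4.51% in GLL22 and 3.79% in GLL23 occurred elsewhere in the genome. None did in the other members. For GLL22, 51 of its 69 such words lay in GLL23. How the authors treated reads with several matches was not stated, so the counts within these tandem pairs are the least certain. PYK10 shares 138 bases with AT3G09250 on the other strand, and MEB1 shares 200 bases with the antisense AT4G27852. Use of strand in counting was not stated, and reads from these stretches cannot be told apart, but AT3G09250 had at most 185 counts and AT4G27852 at most 17.

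The promoters of the regulator NAI1, the body-forming NAI2 and the main cargo PYK10 are printed because these 3 genes head the steps described next. Each holds 250 bases before and 50 after the RefSeq start in TAIR10.1, 5′ to 3′ on the strand of the gene. Capitals mark CACGTG (the G-box, bound by many bHLH factors), AGATT (the core bound by type-B response regulators of the cytokinin pathway) and GNATATNC (the element bound by PHR1 of the phosphate starvation response), on either strand.
NAI1, chr2:9684312-9684611, plus strand: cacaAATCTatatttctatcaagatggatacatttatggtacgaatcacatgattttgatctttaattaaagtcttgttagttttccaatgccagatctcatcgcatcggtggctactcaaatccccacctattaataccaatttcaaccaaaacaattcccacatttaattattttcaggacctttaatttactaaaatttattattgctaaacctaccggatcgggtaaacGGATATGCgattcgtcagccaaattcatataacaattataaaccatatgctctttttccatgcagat
NAI2, chr3:5402604-5402903, minus strand: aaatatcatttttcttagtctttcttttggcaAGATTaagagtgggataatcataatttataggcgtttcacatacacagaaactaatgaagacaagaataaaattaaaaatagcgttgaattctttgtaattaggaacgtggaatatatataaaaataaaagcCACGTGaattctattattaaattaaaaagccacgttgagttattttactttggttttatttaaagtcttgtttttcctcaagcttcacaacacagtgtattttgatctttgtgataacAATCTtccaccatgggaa
PYK10, chr3:2843732-2844031, minus strand: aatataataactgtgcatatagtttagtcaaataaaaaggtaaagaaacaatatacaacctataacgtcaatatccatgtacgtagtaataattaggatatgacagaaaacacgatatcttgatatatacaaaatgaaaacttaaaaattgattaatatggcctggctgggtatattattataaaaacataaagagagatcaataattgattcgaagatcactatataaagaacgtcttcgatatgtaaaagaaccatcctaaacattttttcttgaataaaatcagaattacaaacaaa
The NAI2 window held CACGTG at position −86, the only occurrence among the 9 members, beside 7.68% of 27443 promoters of the same length. The NAI1 window held AGATT, on the other strand, at −246 and GNATATNC at −17. AGATT occurred in 6 of the 9 windows and in 69.7% of all promoters, and GNATATNC in 1 of the 9 and in 6.25% of all. The looser pattern CANNTG, which contains CACGTG, occurred in 5 of the 9 and in 61.7% of all. The PYK10 window held none of these letters. The NAI1 start in RefSeq lies upstream of that in the files, base 9684725. The whole printed NAI1 window lies before that base, so its motif positions hold only for the RefSeq start. Windows set from the starts in the files were not searched.

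The libraries were close in depth, with 19957748 to 20127269 counts, so 1 count equalled 0.0497 to 0.0501 CPM (counts per 1e6 counts of a library). All CPM values below used TMM-scaled library sizes. Of the genes, 20987 passed the filter on low counts and were tested. The call required an adjusted p no larger than 0.05 (edgeR quasi-likelihood test) together with a log2 fold change of 0.5 or more either way. By this rule, 2425 genes were higher and 2384 lower in BAP. The 6 type-A response regulators listed as a check of cytokinin treatment were all called higher, with a summed level of 73.5 to 84.2 CPM in DMSO and 629 to 734 CPM in BAP. Root markers were present in every library, and none of the marker lists summed to 0 in any library. Root hair markers (COBL9, EXPA7 and EXPA18) summed to 56.8, 17.7 and 30.8 CPM in DMSO and to 39.7, 51.1 and 42.2 CPM in BAP. Markers of the root cap and tip summed to 13.2 to 16.4 CPM in DMSO and 8.15 to 9.73 CPM in BAP, and markers of green shoot to 28.1 to 33.3 and 34.5 to 93.6 CPM. Stele markers summed to 140.2 to 149 CPM in DMSO and 291 to 296 CPM in BAP, without overlap, with AHK4, a cytokinin receptor gene, called higher (log2 1.95 ± 0.07, SE) and SHR at −0.40 and ATHB8 at 0.10 not called. Endodermis markers summed to 124 to 161 and 113 to 142 CPM, and cortex markers to 3.52 to 4.06 and 3.05 to 6.39 CPM. The part of these marker levels in the members' values was not tested.

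All 9 members passed the filter and all 9 were called higher in BAP, beside 11.6% of the genes tested. In each member, every BAP library lay above every DMSO library, beside 24.7% of the genes tested. Because this contrast was known when the members were listed, nothing is read from these shares. The log2 fold changes ran from 1.33 in BGLU21 to 3.50 in NAI1, with a median of 1.92, while the median over all genes tested was 0.00. In bulk roots, more cells that express a gene and more RNA per cell cannot be told apart.

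**Figure D1:**
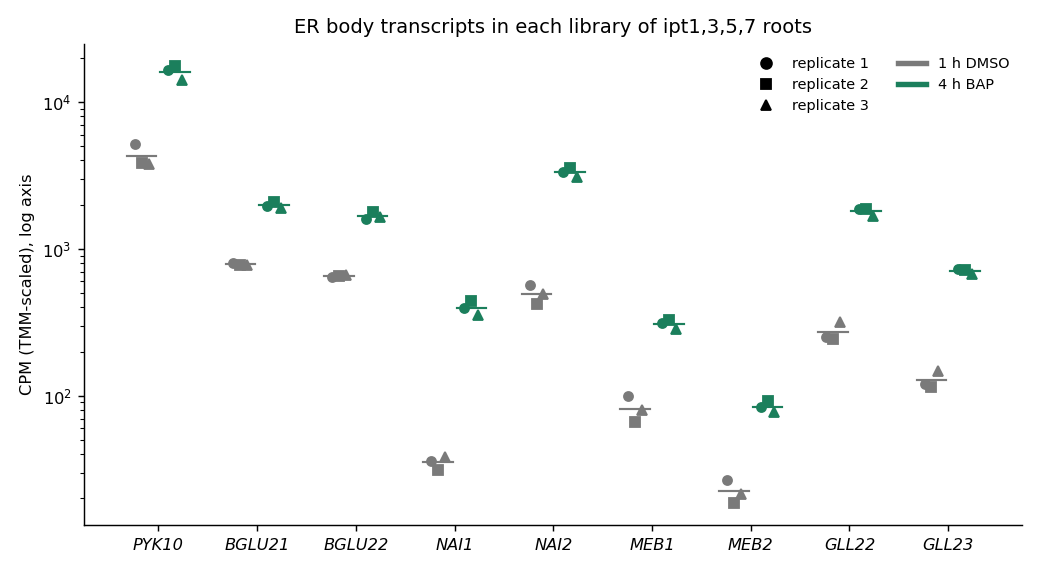
Level of each ER body gene in every library, in CPM on a log axis, with 1 h DMSO libraries in grey, 4 h BAP libraries in green, a symbol for each replicate and lines for the group means. In each of the 9 genes the 3 BAP libraries lie above the 3 DMSO libraries.

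NAI1, the transcription factor on which the formation of ER bodies depends, had the largest difference among the members. Its counts were 725, 648 and 803 in DMSO and 7660, 8395 and 7159 in BAP. These are levels of 35.9, 31.2 and 38.5 CPM against 396, 439 and 357 CPM. The means were 35.2 ± 3.70 CPM (SD, n = 3) and 397 ± 40.8 CPM (SD, n = 3), and the log2 fold change was 3.50 ± 0.11 (SE), or 11.3-fold. The lowest BAP library was 9.27-fold above the highest DMSO library. By rank of CPM, the gene moved from position 6364 in the mean of DMSO to 324 in BAP, and 78 tested genes had a larger log2 fold change.

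NAI2 gives ER bodies their form and is itself located in them. Its level was 569, 425 and 493 CPM under DMSO and 3318, 3580.2 and 3064 CPM under BAP. DMSO library 2 was the lowest and BAP library 2 the highest, and the groups were 5.39-fold apart at their nearest libraries. The mean rose from 496 ± 72.2 to 3321 ± 258 CPM (SD, n = 3), with a log2 fold change of 2.74 ± 0.14 (SE), or 6.70-fold. By rank of CPM among all genes, NAI2 was at position 8 in BAP and 205 in DMSO.

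PYK10, the β-glucosidase that is the main content of root ER bodies, had the highest counts of the members in every library. Its counts were 105156, 79214 and 78306 in DMSO and 320218, 337263 and 282372 in BAP. The levels were 5207, 3818 and 3758 CPM in DMSO and 16571, 17627 and 14089 CPM in BAP. DMSO library 1 stood above the other DMSO libraries, and the groups did not overlap, being 2.71-fold apart at their nearest. The mean of DMSO was 4261 ± 819.7 CPM and that of BAP 16096 ± 1816 CPM (SD, n = 3), with a log2 fold change of 1.92 ± 0.18 (SE), or 3.78-fold.

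Ranked by CPM, which takes no account of gene length, PYK10 was the third of all genes in each DMSO library and the highest in each BAP library. It made up 0.527%, 0.396% and 0.391% of all counts in DMSO and 1.59%, 1.68% and 1.40% in BAP. The exact Clopper-Pearson intervals (95%) for these shares were narrow, 0.524% to 0.530% in DMSO library 1 and 1.398% to 1.408% in BAP library 3, and cover counting error only. The 9 genes together took 0.785%, 0.638% and 0.656% of all counts in DMSO and 2.58%, 2.71% and 2.37% in BAP. PYK10 alone held 59.2% to 67.1% of the members' counts.

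BGLU21 and BGLU22, β-glucosidases known to act on the coumarin glucoside scopolin, had the smallest differences among the members. BGLU21 stood at 802, 776 and 779 CPM in DMSO and at 1952, 2071 and 1902 CPM in BAP. Its means were 786 ± 14.3 and 1975 ± 87.2 CPM (SD, n = 3), with a log2 fold change of 1.33 ± 0.09 (SE), or 2.51-fold. BGLU22 stood at 642, 657 and 666 CPM in DMSO and at 1585, 1774 and 1659.8 CPM in BAP. Its means were 655 ± 12.1 and 1673 ± 95.1 CPM (SD, n = 3), with a log2 fold change of 1.35 ± 0.09 (SE), or 2.55-fold. The ratio of BGLU21 to BGLU22 counts was 1.199 ± 0.043 in DMSO and 1.18 ± 0.044 in BAP (SD, n = 3), with overlapping ranges. The ratio of PYK10 to BGLU21 counts was 5.41 ± 0.936 in DMSO and 8.14 ± 0.630 in BAP, without overlap.

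MEB1 and MEB2 are membrane proteins of the ER body that resemble iron and manganese transporters. MEB1 stood at 99.5, 66.5 and 79.7 CPM in DMSO and at 315, 329 and 286 CPM in BAP. Its means were 81.9 ± 16.6 and 309.8 ± 22.0 CPM (SD, n = 3), with a log2 fold change of 1.92 ± 0.14 (SE), or 3.78-fold. MEB2 was lower, at 26.7, 18.6 and 21.6 CPM in DMSO and 83.8, 91.6 and 77.2 CPM in BAP. Its means were 22.3 ± 4.11 and 84.2 ± 7.20 CPM (SD, n = 3), with a log2 fold change of 1.92 ± 0.13 (SE), or 3.77-fold. The genes kept the same order of libraries, and their count ratio was 3.66 ± 0.078 in DMSO and 3.68 ± 0.087 in BAP (SD, n = 3), with overlapping ranges.

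GLL22 and GLL23 encode GDSL lipase-like proteins found in complexes with PYK10. GLL22 stood at 252, 245 and 317 CPM in DMSO and at 1868, 1862 and 1677 CPM in BAP. Its means were 271 ± 39.7 and 1802 ± 109 CPM (SD, n = 3), with a log2 fold change of 2.73 ± 0.12 (SE), or 6.65-fold. GLL23 stood at 121, 114 and 148 CPM in DMSO and at 731, 719.6 and 674 CPM in BAP. Its means were 128 ± 18.1 and 708 ± 30.3 CPM (SD, n = 3), with a log2 fold change of 2.47 ± 0.11 (SE), or 5.54-fold. DMSO library 3 was the highest of its group and BAP library 3 the lowest in both genes. Unlike the BGLU and MEB pairs, this pair differed in ratio between the groups, with GLL22 at 2.12 ± 0.033 times the GLL23 counts in DMSO and 2.54 ± 0.050 times in BAP (SD, n = 3), without overlap.

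**Figure D2:**
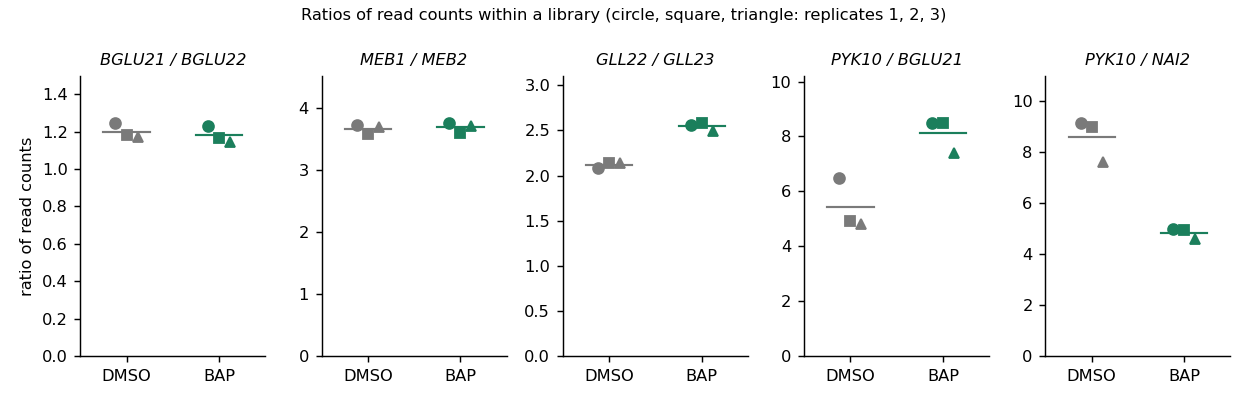
Count ratios between pairs of ER body genes in each library, with the ratio on the y axis, DMSO in grey, BAP in green, a symbol for each replicate and lines for group means. The BGLU21 to BGLU22 and MEB1 to MEB2 ratios overlap between the groups, whereas the ratios of GLL22 to GLL23, of PYK10 to BGLU21 and of PYK10 to NAI2 do not.

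The balance between cargo and body-forming transcripts differed between the groups. PYK10 had 9.15, 8.99 and 7.62 counts for each NAI2 count in DMSO, against 4.99, 4.92 and 4.598 under BAP, with no overlap. The PYK10 to NAI1 ratio was 121.6 ± 23.8 in DMSO and 40.5 ± 1.21 in BAP (SD, n = 3).

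Exon lengths for levels per kb came from RefSeq TAIR10.1, while reads were counted on TAIR10 gene models, so these levels are approximate. How the lengths of the counted models would change the order was not tested. Per kb of exon, PYK10 led in both groups, at 2359 ± 454 CPM per kb in DMSO and 8912 ± 1006 in BAP (SD, n = 3). In DMSO it was followed by BGLU21 (395), BGLU22 (315), NAI2 (190.3), GLL22 (157), GLL23 (82.8), MEB1 (34.6), NAI1 (22.7) and MEB2 (11.5 CPM per kb). Of these neighbours in order, only the ranges of NAI2 and GLL22 overlapped. In BAP the order was PYK10, NAI2 (1275), GLL22 (1045), BGLU21 (993), BGLU22 (804), GLL23 (459), NAI1 (256), MEB1 (131) and MEB2 (43.3 CPM per kb), and only GLL22 and BGLU21 overlapped. NAI2 and GLL22 thus lay below both BGLU genes in DMSO and above both by their means in BAP.

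**Figure D3:**
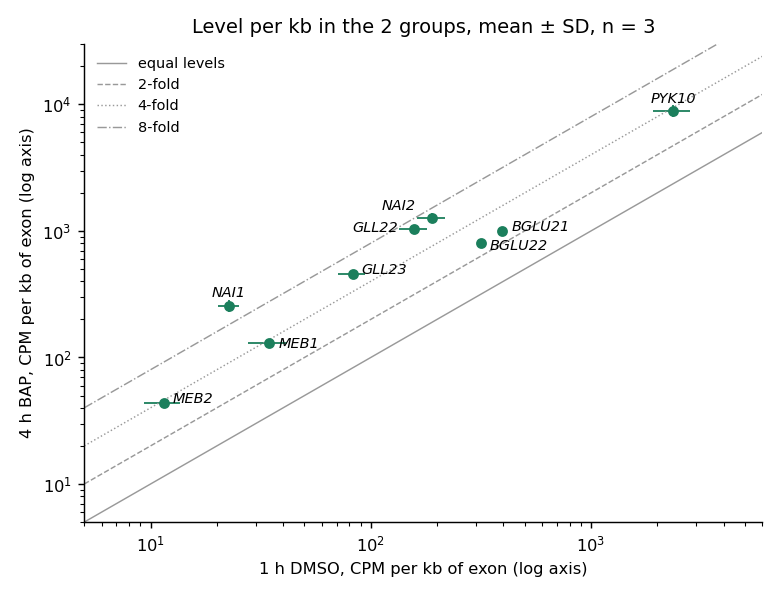
Level of each ER body gene in BAP (y axis) against DMSO (x axis), in CPM per kb of exon on log axes, with points for group means, bars for the SD (n = 3) and grey lines for equal levels and for 2-, 4- and 8-fold higher levels in BAP. NAI1 alone lies above the 8-fold line, PYK10, MEB1 and MEB2 lie just under the 4-fold line, and BGLU21 and BGLU22 lie nearest to the 2-fold line.

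The libraries of a group did not order all members alike. In DMSO, library 1 was highest for PYK10, BGLU21, NAI2, MEB1 and MEB2, and library 3 for NAI1, BGLU22, GLL22 and GLL23. The root hair markers followed the order of BGLU21, NAI2, MEB1 and MEB2 in DMSO, at 56.8, 17.7 and 30.8 CPM, though BGLU21 hardly differed between libraries 2 and 3 (776 and 779 CPM). In BAP the markers stood at 39.7, 51.1 and 42.2 CPM, an order shared by BGLU22 but not by BGLU21, NAI2, MEB1 or MEB2. The part of the root hair markers in these differences was not tested. In BAP, library 2 was highest for 7 members, GLL22 and GLL23 being highest in library 1. Library 3 was lowest for 8, BGLU22 being lowest in library 1. Library 3 of BAP also had the highest green shoot marker sum, 93.6 CPM, against 34.5 and 44.4 CPM in the other BAP libraries, and its part was not tested. Pearson correlations of log2 CPM between members over the 6 libraries, which largely reflect the groups, ran from 0.976 to 1.000.

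Other proteins of ER bodies were listed separately, also with earlier results of these data known. Of 6 listed genes, 3 were called higher and none lower, beside 11.6% and 11.4% of all genes tested. The median log2 fold change of the 6 was 0.89. None was called lower by DESeq2 either, and 1 was lower at an unadjusted p below 0.05 in edgeR. The called genes were TSA1, the NAI2 relative of leaf and wound-induced ER bodies (60.0% identical to NAI2), MVP1, a GDSL lipase-like protein (38.6% identical to GLL22), and BGLU18, the β-glucosidase of leaf ER bodies. TSA1 rose from 10.9 ± 1.01 to 57.3 ± 4.73 CPM (SD, n = 3), with a log2 fold change of 2.40 ± 0.10 (SE) and an adjusted p of 1.19e-06 (edgeR). MVP1 rose by 1.89 ± 0.09 (log2, SE) with an adjusted p of 2.46e-06, and BGLU18 by 1.73 ± 0.11 with an adjusted p of 9.19e-06. Of the NAI2-interacting proteins, NAIP1 had a log2 fold change of −0.30 (adjusted p = 0.0481), below the fold minimum, and NAIP2 and NAIP3 had 0.04 and −0.07.

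Among 8 tested relatives of PYK10 (10 listed), 4 were called higher and none lower, beside 11.6% and 11.4% of all genes tested. The median of these relatives was 0.88. DESeq2 also called none lower, and 1 was lower at an unadjusted p below 0.05 in edgeR. Without DMSO library 3 or BAP library 2, 1 was called lower, and 6 were called higher without BAP library 1 and also with a replicate block. BGLU18, among the 4, is also among the other ER body proteins. BGLU20 led at 1.94 ± 0.17 (log2, SE), rising from 16.3 ± 4.29 to 62.3 ± 6.17 CPM. BGLU24, which is 78.4% identical to PYK10, rose by 1.66 ± 0.11 from 148 ± 16.7 to 469 ± 44.5 CPM. BGLU25 rose by 0.92 ± 0.07. PEN2, a myrosinase of another compartment, had −0.46 ± 0.08 (adjusted p = 0.00300, edgeR), below the fold minimum.

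Of the bHLH relatives of NAI1, bHLH19, its neighbour (46.3% identical), was called higher on counts of 11, 18 and 20 in DMSO and 21, 35 and 42 in BAP (log2 1.07 ± 0.32, adjusted p = 0.0293, edgeR), and bHLH25 lower (−1.22 ± 0.16, adjusted p = 5.48e-04). The bHLH19 call was lost in 4 of the 6 fits with a library left out. bHLH18 was too low to be tested. Of all genes tested, 11.6% were called higher and 11.4% lower. Among 5 tested VIT-like genes, the family of iron transporters that MEB1 and MEB2 resemble, VTL2 was called lower (−0.80 ± 0.23, adjusted p = 0.0225, edgeR). None of the 5 was called higher. DESeq2 called none higher, and none was higher at an unadjusted p below 0.05. The VTL2 call was lost without DMSO library 3, without BAP library 2 and without BAP library 3, and 1 gene was called higher without DMSO library 3.

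Jacalin lectins assemble with PYK10 when tissue is disrupted. All 8 listed were called higher, beside 11.6% of all genes tested, with a median of 2.22. Like the other lists, this one was written with earlier results of these data known, so nothing is read from its share. JAL33 rose most, by 3.15 ± 0.14 (log2, SE), from 104 ± 17.4 to 922 ± 98.4 CPM. JAL30, also called PBP1, rose by 2.71 ± 0.13, from 760.0 ± 93.8 to 4961 ± 356 CPM, and JAL31 by 2.74 ± 0.11.

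Indole glucosinolates are substrates that PYK10 can hydrolyse. Of 13 listed genes for their synthesis, 7 passed as higher and 2 as lower, beside 11.6% and 11.4% of all genes tested. The median of the 13 was 1.27. CYP81F4 rose by 2.84 ± 0.14 and MYB34, a regulator of the pathway, by 2.12 ± 0.10 (log2, SE), while MYB122 fell by 1.40 and CYP81F1 fell by 0.79.

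The genes listed for the folding of proteins in the ER were chaperones and the stress-response factors BZIP28 and BZIP60. Of 15 tested, 11 were called higher and none lower, beside 11.6% and 11.4% of all genes tested. The median log2 fold change of the 15 was 0.71. DESeq2 also called none lower, and 3 were lower at an unadjusted p below 0.05 in edgeR. Without DMSO library 3, 1 was called lower, and without BAP library 3, 2 were. The calreticulin gene CRT1B had the largest rise, 1.10 ± 0.08 (log2, SE), followed by PDIL1-2, 1.07 ± 0.09, and the calnexin gene CNX1, 1.02 ± 0.09. The other 4 were not called and had negative values, −0.62 in BIP3, −0.49 in BZIP28, −0.41 in BZIP60 and −0.18 in CRT3. Of the ER export genes GNL1 and SEC24A, neither was called in edgeR or DESeq2, nor had an unadjusted p below 0.05, with log2 fold changes of −0.08 and −0.07.

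**Figure D4:**
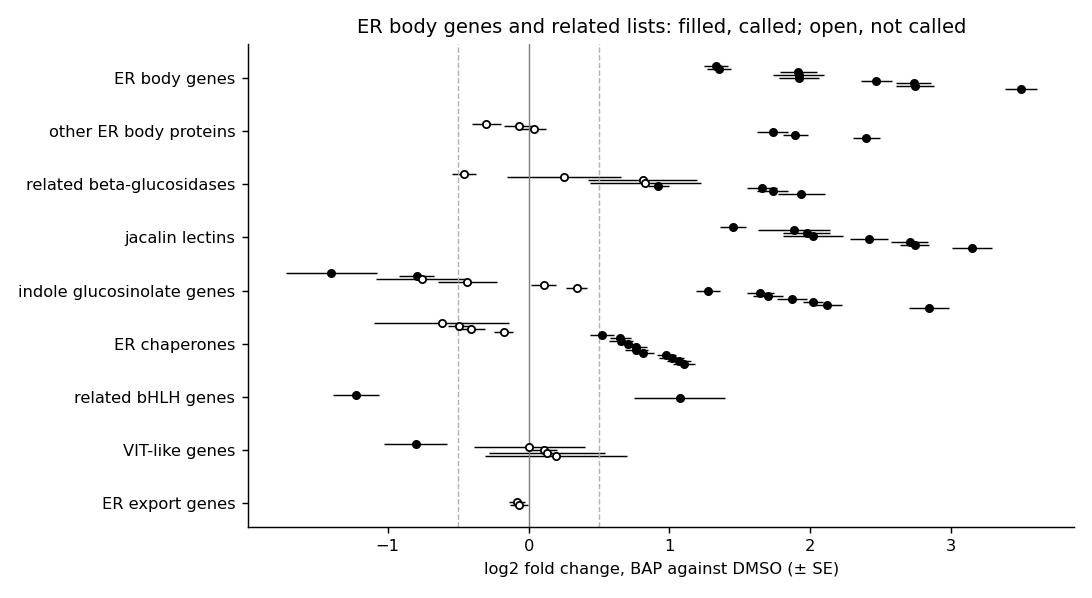
Log2 fold change (BAP over DMSO) of each tested gene in the ER body list and related lists, with points for genes (filled where called, open where not), bars for the SE and dashed lines at the fold minimum of 0.5 either way. The 9 ER body genes and the 8 jacalin lectins lie above 1, while ER export genes lie near 0.

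The nearest genes on either side of the members were called in both directions. Of 28 such neighbours at 7 loci, 21 were tested, 5 were called higher, 4 lower and 12 not called. Over all genes tested, 11.6% were called higher and 11.4% lower. Beside GLL22, AT1G53980 fell from 21, 30 and 25 counts in the DMSO libraries to 1, 0 and 2 under BAP, a log2 fold change of −4.43 ± 0.51 (SE). GLIP3, a GDSL lipase gene, fell from 81, 100 and 85 counts to 5, 7 and 6 (−3.78 ± 0.23). These lie next to GLL22, which rose by 2.73. On the GLL23 side, MVP1, one of the other ER body proteins above, was called higher (1.89 ± 0.09). It went from 93.4 ± 6.77 to 347 ± 28.5 CPM (SD, n = 3). Beside PYK10, AT3G09250 fell by 0.89 and BSK9 fell by 0.56, while GSTU8, a glutathione transferase gene, rose by 1.21 ± 0.13. Beside NAI2, AT3G15960 was called higher, with 1, 3 and 3 counts under DMSO and 16, 30 and 23 under BAP. Next to NAI1, AT2G22790 rose by 1.29 ± 0.18, and bHLH19, described above, was also called higher. No tested neighbour of MEB1, MEB2 or BGLU21 and BGLU22 was called. AT1G66290 and AT1G66300 on the BGLU22 side, and AT4G27875 near MEB1, were not tested.

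**Figure D5:**
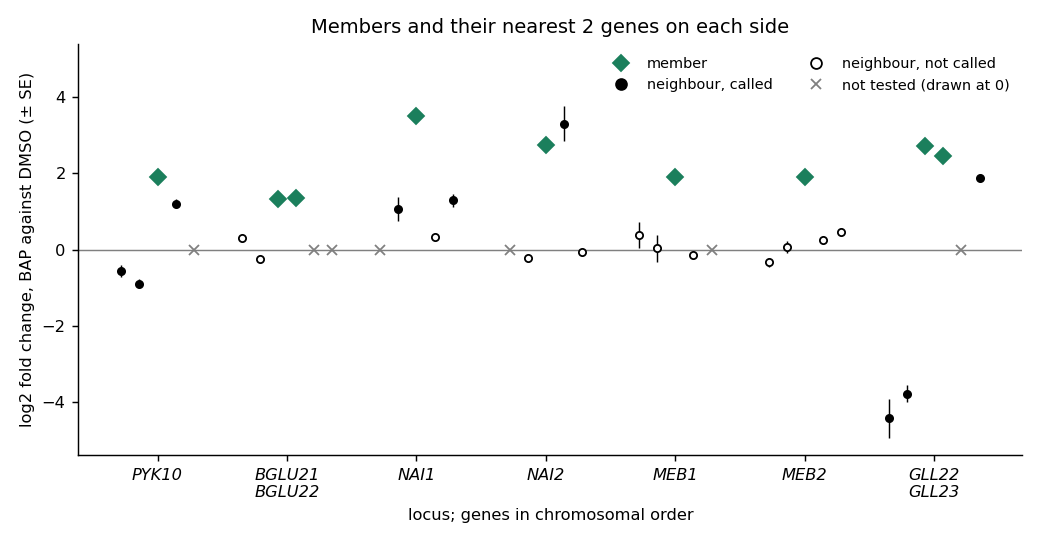
Log2 fold change (BAP over DMSO, y axis) of the members (green diamonds) and their nearest 2 genes on each side (circles, filled where called), in chromosomal order at each locus, with bars for the SE and crosses at 0 for genes not tested. Members lie between 1.33 and 3.50, whereas neighbours run from −4.43 to 3.31.

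By likeness over the 6 libraries (Pearson's r of log2 CPM, among 13243 genes averaging 10 CPM or more), the genes most like PYK10 were scpl3 (r = 0.9997), AT5G65380, GPDHC1, CYP705A26P and AT2G04190. Those most like NAI1 were XTH20, AT2G24580, CYP81F3, AT4G02850 and AT5G38030. With 6 libraries in 2 groups, an r of at least 0.95 was common: 9.22% of these genes reached it with PYK10 and 9.90% with NAI1.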

How the data were processed

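RNA from 6 root libraries was analysed, in groups taken from the labels. The deposited files hold raw counts of reads per gene. After trimming, the authors used Bowtie2 for mapping and HTSeq for counting per gene (TAIR10 per the submitters' processing notes), with versions, strand and treatment of multiple matches not given in the sources used here. Gene starts are printed counted from 1.

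Genes were kept by filterByExpr (minimum count 10, total 15), scaled by TMM and tested by quasi-likelihood in edgeR 4.0.16 (R 4.3.3), with Benjamini-Hochberg adjustment over all 20987 genes tested. 12615 genes were left out. The SE is the size of the log2 fold change divided by the square root of F. The alternatives were DESeq2 1.42.0, other scalings and filters, a replicate block, each library left out and no fold minimum. The test was tried on simulated data with known changes. Sequences, protein identities and motifs came from RefSeq TAIR10.1 with Biopython 1.88, and exon lengths from the same annotation. Between the counted gene models and RefSeq, 32835 identifiers matched. Of these, 10599 had the same start and end, and 98.5% of gene spans lay within the RefSeq gene. Log2 CPM for likeness used a pseudocount of 0.5.

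The members and lists were chosen with earlier results of these data known. Named were all members, for each list its called genes with the largest changes (at most 3 in each direction), the nearest 2 genes on each side of each locus, and the 5 genes most like PYK10 and NAI1. NAIP1 to NAIP3, BGLU25, PEN2, BIP3, CRT3, BZIP28, BZIP60, GNL1 and SEC24A were named after their values were seen.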

Additional observations from a re-analysis of the deposited data

How the results depend on the processing

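All 9 members kept their call under each of the 13 alternatives run. The alternative with no fold minimum only drops a rule from the main fit, so it could not remove a call. The members' log2 fold changes ranged over 1.30 to 1.36 in BGLU21, 1.82 to 2.07 in PYK10 and 3.40 to 3.57 in NAI1. With no fold minimum, 3887 genes were higher and 4061 lower, and 1 other ER body protein, 1 related β-glucosidase and 2 ER chaperones were called lower. Without a filter beyond 1 read, 1 ER chaperone was called lower. With a library left out, all genes called higher ranged over 2200 to 2387 and lower over 2107 to 2496. Related β-glucosidases called lower ranged over 0 to 1, bHLH genes called higher over 0 to 1, VIT-like genes called higher and lower each over 0 to 1, and ER chaperones called lower over 0 to 2. The cause of these changes was not tested. The MEB1 level in BAP was 142 CPM per kb with the length of the first transcript, which has 2179 bases against 2368 in the union of exons. Both lengths are from RefSeq. Libraries with the same number had deviations correlated at 0.213, 0.0627 and 0.323, and those with different numbers at −0.308 to 0.0926. Each library except BAP library 2 correlated best with its own number, which is a hint of pairing from the data. The study describes the experiment as done in triplicate, but the labels do not say whether same-numbered libraries share a repeat. Since the labels name no shared batch, the block was kept as an alternative. The fit with a replicate block called 2474 genes higher, 2455 lower and all 9 members higher.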
